A study of Mus musculus with 5 samples.

Results

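The tricarboxylic acid (TCA) cycle enzymes of cold-exposed brown adipose tissue (BAT) were examined in mice lacking the transcription factor ATF4 in brown adipocytes and in their controls. The genes described are 9 cycle enzymes or subunits, Cs, Idh2, Idh3a, Idh3b, Ogdh, Suclg1, Sucla2, Fh1 and Mdh2, chosen by name, out of 52022 genes to which transcripts could be matched. ATF4 BKO mice carried 2 floxed Atf4 alleles and a Cre recombinase driven by the Ucp1 promoter, so the deletion was aimed at cells that express Ucp1 and not at the other cells of the depot. WT mice were littermates with the same floxed alleles and no Cre. All mice were on a C57Bl/6J background, aged 10 to 12 weeks, labelled male and fed ad libitum, and all had spent 7 days at 30 °C followed by 3 days at 4 °C. There were 3 ATF4 BKO and 2 WT libraries of interscapular BAT mRNA, each from 1 mouse, with 24698337, 27578833 and 31558111 estimated reads in ATF4 BKO replicates 1, 2 and 3, and 30996438 and 32452751 in WT replicates 1 and 2. No library was kept warm, so only genotypes in the cold are compared.

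The TCA cycle runs in the mitochondrial matrix, where it oxidises the acetyl groups delivered by fatty acids and pyruvate and passes the electrons to the respiratory chain. In brown fat that chain feeds uncoupled respiration through UCP1, and a dense set of mitochondria with abundant cycle enzymes is one of the marks of the tissue. ATF4 is the main transcription factor of the integrated stress response and is best known for switching on genes of amino acid synthesis and transport. The comparison addresses whether the cycle's mRNAs differ in cold BAT when ATF4 is missing.

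The libraries were first compared with their labels. In counts-per-million (CPM, scaled between libraries with edgeR's TMM factors), Atf4 itself measured 32.6, 52.6 and 23.5 in the ATF4 BKO mice against 286 and 226 in the WT mice, a log2 fold change of -2.82 with a standard error (SE) of 0.34. The genotypes did not overlap. That difference was called by DESeq2 (adjusted p = 9.72e-12) and not by edgeR's quasi-likelihood test (adjusted p = 0.671). Known ATF4 targets were lower with it: all 13 genes of the list of Atf4 and its targets had a negative log2 fold change, with a median of -2.27. DESeq2 called 9 of them, namely Atf4, Fgf21, Asns, Trib3, Mthfd2, Psat1, Phgdh, Chac1 and Atf5, where it called 0.736% of all genes. edgeR called 0 of the 13. Brown adipocyte markers were present in every library at very different levels. Ucp1, the uncoupling protein that makes heat, had between 8039 and 10072 TPM (transcripts-per-million, scaled for transcript length). Prdm16, a transcription factor of brown fat, had 3.15 to 6.77 TPM and Ebf2, another, 11.4 to 15.5. Of the 10 brown markers 7 had a positive and 3 a negative log2 fold change, with a median of 0.17. Dio2, which activates thyroid hormone (0.54), and Ppargc1a (0.35) were the highest and Prdm16 (-0.25) and Ebf2 (-0.19) the lowest, and none was called by either tool.

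Several features set single libraries apart. ATF4 BKO replicate 1, labelled male, had 4598 reads of Xist, the RNA expressed from the inactive X chromosome of females, against 0, 1, 7 and 2 in the other libraries, and 34 reads over 4 Y-linked genes (Kdm5d, Uty, Ddx3y and Eif2s3y) against 3284 to 4476 in the others. Its RNA therefore goes against its sex label, and results are also given without it. WT replicate 2 held skeletal muscle RNA: the TPM of 21 tested muscle markers, of 22 listed, summed to 2400.1 there, to 158 in WT replicate 1 and to 75.2, 73.2 and 75.9 in the ATF4 BKO libraries. Myl1 made up most of the ATF4 BKO sums (42.0 to 68.5 TPM), while in WT replicate 2 Acta1 (345 TPM) and Ckm (330 TPM) exceeded it (179 TPM). All 21 had a negative log2 fold change. For 19 of them every ATF4 BKO value lay below both WT values, where 10.6% of all genes did. DESeq2 called 10 of them, beside 0.736% of all genes, and edgeR called 0. Erythrocyte genes were highest in WT replicate 1, with a summed TPM of 9025 for 6 genes led by Hbb-bs against 3209.6 to 5417 elsewhere, and the 7 macrophage markers, led by Lyz2, were lowest there, at 155 against 386 to 1148. The summed TPM of white adipocyte markers (led by Npr3, 65.6 to 153), endothelial markers (Cdh5, 262 to 352), B and T cell markers (Ptprc, 3.56 to 15.6), nerve and Schwann cell markers (S100b, 113 to 164) and general adipocyte markers (Fabp4, 13201 to 16382) overlapped between genotypes. Gene by gene these lists were less even. All 6 endothelial, 7 macrophage and 8 B and T cell markers had a positive log2 fold change, with medians of 0.37, 0.44 and 0.40, and all 6 erythrocyte genes had a negative one, with a median of -0.64. Every ATF4 BKO value lay above both WT values for 2 endothelial markers (Pecam1 and Tek) and 1 B and T cell marker, where 8.95% of all genes did. The same held for 2 nerve and Schwann cell markers, Sox10 among them, and for the adipocyte markers Adipoq and Fabp4. Of 4 tested nerve and Schwann cell markers, 3 had a positive and 1 a negative log2 fold change, with a median of 0.70. Of 6 adipocyte markers, 5 had a positive and 1 a negative one, with a median of 0.21. Of 5 white adipocyte markers, 4 had a negative and 1 a positive log2 fold change, with a median of -0.25 and a highest value of 1.69. Lep (-2.57) and Nnat (-1.52) had every ATF4 BKO value below both WT values, where 10.6% of all genes did. None of these genes was called by edgeR or DESeq2. Sample names carried 1 of 2 prefixes with no stated meaning, shared by ATF4 BKO replicates 1 and 2 and WT replicate 1 on one side and by ATF4 BKO replicate 3 and WT replicate 2 on the other. The part of these features in the results below was not tested, except where a value without the library, within the prefix or with a skeletal muscle covariate is given. In bulk tissue, fewer cells of a type and less RNA per cell cannot be told apart.

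The mRNAs of the 9 cycle enzymes were abundant, and none was called different between ATF4 BKO and WT mice. All 9 passed the count filter. On the TMM-scaled CPM scale, 5 had a negative and 4 a positive log2 fold change (48.8% of all genes tested had a negative one, and 48.7% of the 456 genes at or above the mean TPM of the lowest member). The values lay between -0.17 (Cs) and 0.15 (Suclg1), and the median was -0.01, beside 0.01 over the 16450 genes tested. With a skeletal muscle covariate in the edgeR fit all 9 had a negative value and the median was -0.30, with -0.45 for Ogdh, -0.44 for Mdh2, -0.38 for Cs, -0.30 for Idh3a and Idh3b and -0.06 to -0.11 for the others. None was called with the covariate either, and muscle RNA and genotype cannot be told apart. None of the 9 was called by edgeR, which called 0.00608% of all genes (1 gene, Cacna1i), or by DESeq2, which called 0.736%. At an unadjusted p under 0.05, edgeR counted 0 of the 9, against 5.23% of all genes (3.42% lower and 1.81% higher). Only Cs was lower in every ATF4 BKO library than in both WT libraries and none was higher in every one, where the shares over all genes were 10.6% and 8.95%, and 4.82% for the former among the 456 genes as abundant as the members. The 95% intervals of the log2 fold changes held 0 for all 9. Their outer bounds were -0.58 and 0.79, a fold of 0.670 to 1.73, or 0.670 to 1.56 without Idh2, whose interval was the widest. The narrowest interval, that of Fh1, ran from a fold of 0.825 to 1.37.

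**Figure D1:**
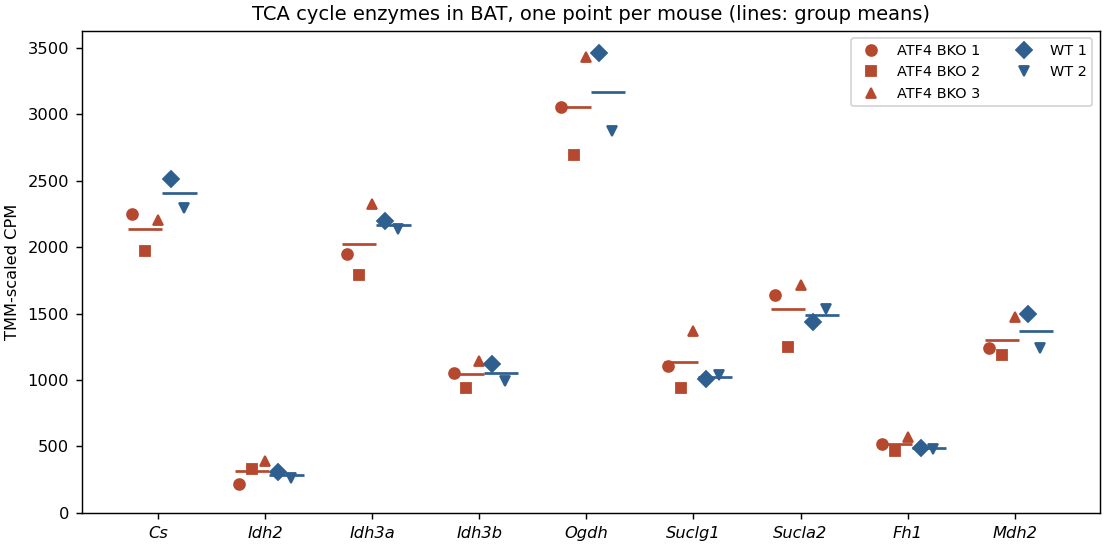
TMM-scaled CPM (linear axis from 0) of the 9 TCA cycle enzymes in each mouse, ATF4 BKO in red and WT in blue, with short lines at the group means. For 6 enzymes the lowest and the highest point are both ATF4 BKO, and only for Cs do all red points lie below both blue points.

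The cycle opens with citrate synthase, Cs (ENSMUSG00000005683.8, chr10:128337734-128362479, plus strand, GRCm38), which joins acetyl-CoA to oxaloacetate. Cs measured 2250.5, 1968 and 2201 CPM in the ATF4 BKO mice and 2514 and 2297 in the WT mice. All the ATF4 BKO values lay below both WT values, with ATF4 BKO replicate 1 and WT replicate 2 the nearest pair. Its mean was 2139.6 ± 151 (SD, n = 3) against 2405 ± 153 (n = 2), and the log2 fold change was -0.17 ± 0.17 (SE), with a 95% interval from -0.58 to 0.24 and an edgeR adjusted p of 0.942. Without single libraries the log2 fold change ranged from -0.25 (without WT replicate 2) to -0.09 (without WT replicate 1), with -0.21 without ATF4 BKO replicate 1 and -0.10 without ATF4 BKO replicate 2. Of the 31-base words of its transcripts, 5.55% occur in other genes, so some of its reads could be split. Csl, a closely related sequence, shares more of these words than any other gene.

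The next oxidation, from isocitrate to 2-oxoglutarate, has an NAD-linked and an NADP-linked enzyme. Idh3a (ENSMUSG00000032279.11, chr9:54586334-54604661, plus strand) encodes the catalytic alpha subunit of the NAD-linked enzyme that drives the cycle forward. Idh3a measured 1947, 1792 and 2323 CPM in the ATF4 BKO mice and 2196 and 2134 in the WT mice, a log2 fold change of -0.10 ± 0.18 (SE). The ATF4 BKO values reached from below to above both WT values. Idh3b (ENSMUSG00000027406.12, chr2:130279309-130284547, minus strand), a partner subunit of the same enzyme, was nearest to equal, with 1054, 939 and 1144 CPM against 1117 and 989.8 and a log2 fold change of -0.01 ± 0.17 (SE). The ratio of Idh3a to Idh3b TPM was 1.38, 1.48 and 1.55 in the ATF4 BKO mice and 1.52 and 1.65 in the WT mice. These ratios overlapped (difference -0.116, two-sided exact permutation test, p = 0.3, where 0.1 is the smallest p that 10 splits of the mice allow). The TPM of both genes sum all their transcripts. The coding Idh3a-205 held on average 32.5% of Idh3a TPM, and the coding Idh3b-201 held 92.2% of Idh3b TPM.

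Idh2 (ENSMUSG00000030541.16, chr7:80094846-80115392, minus strand) encodes the NADP-linked mitochondrial enzyme, which makes NADPH. It was the member that varied most between mice of 1 genotype, with 217, 334 and 391 CPM in the ATF4 BKO libraries against 307 and 260.1 in the WT libraries. The low value belonged to ATF4 BKO replicate 1, the library whose sex-linked RNA went against its label. With all mice the log2 fold change was 0.15 ± 0.26 (SE) and the 95% interval reached from -0.50 to 0.79. Without that library it was 0.35, still not called by edgeR. Within the name prefixes it was -0.16 and 0.59.

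Ogdh (ENSMUSG00000020456.17, chr11:6291633-6356642, plus strand) encodes the first subunit of the 2-oxoglutarate dehydrogenase complex, which releases the cycle's second molecule of CO2. It measured 3054, 2689.8 and 3429 CPM in the ATF4 BKO mice and 3462 and 2877 in the WT mice, with a log2 fold change of -0.05 ± 0.20 (SE). Both genotypes covered nearly the same range. The gene has a pair of alternative versions of its exon 4, and the reads tell which form of the enzyme the tissue transcribes. The exon of the transcripts Ogdh-201 and Ogdh-204 has 103 bases (chr11:6316978-6317080) and that of Ogdh-202 and Ogdh-203 has 91 bases (chr11:6316765-6316855). Both are shown 5′ to 3′ on the plus strand of GRCm38, and the capitals mark the 57 bases that are identical when the sequences are aligned.
Ogdh exon 4 of Ogdh-201 and Ogdh-204: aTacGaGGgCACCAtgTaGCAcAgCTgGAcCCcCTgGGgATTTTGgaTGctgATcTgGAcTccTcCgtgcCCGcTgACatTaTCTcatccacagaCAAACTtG
Ogdh exon 4 of Ogdh-202 and Ogdh-203: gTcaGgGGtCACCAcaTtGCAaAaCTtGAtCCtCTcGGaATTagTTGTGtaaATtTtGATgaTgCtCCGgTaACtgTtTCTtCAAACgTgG
Transcripts with the 103-base exon held 96.6%, 95.4% and 96.5% of Ogdh TPM in the ATF4 BKO mice and 96.6% and 96.1% in the WT mice. Those with the 91-base exon held 1.70%, 2.55% and 1.85% against 1.33% and 1.89%. Cold BAT thus used almost a single form of this exon, and the genotypes overlapped.

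Succinyl-CoA ligase, the step at which the cycle makes a nucleoside triphosphate directly, pairs a shared alpha subunit, Suclg1, with an ATP-forming beta subunit, Sucla2, or a GTP-forming one, Suclg2. Suclg1 (ENSMUSG00000052738.14, chr6:73248382-73276911, plus strand) measured 1103, 942 and 1367 CPM in the ATF4 BKO mice and 1010.2 and 1036 in the WT mice, a log2 fold change of 0.15 ± 0.20 (SE). That value was 0.00083 without ATF4 BKO replicate 3 and 0.29 without ATF4 BKO replicate 2. Sucla2 (ENSMUSG00000022110.13, chr14:73525319-73596142, plus strand) measured 1638, 1247 and 1717 CPM against 1440.0 and 1538, a log2 fold change of 0.04 ± 0.20 (SE). For both genes the 2 WT values lay inside the ATF4 BKO range. Per length, Sucla2 made up 92.5%, 93.1% and 93.8% of the summed Sucla2 and Suclg2 TPM in the ATF4 BKO mice and 92.4% and 93.2% in the WT mice. The ATP-forming subunit was the more abundant by 13.3 times over all mice, and its share did not differ beyond the spread (difference 0.333 percentage points, two-sided exact permutation test, p = 0.6).

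The last steps restore oxaloacetate. Fh1 (ENSMUSG00000026526.14, chr1:175600374-175625635, minus strand), fumarate hydratase, measured 521, 465 and 568 CPM in the ATF4 BKO mice and 492 and 481 in the WT mice, with a log2 fold change of 0.09 ± 0.15 (SE). That value was 0.02 without ATF4 BKO replicate 3 and 0.18 without ATF4 BKO replicate 2. Mdh2 (ENSMUSG00000019179.10, chr5:135778480-135790398, plus strand), the mitochondrial malate dehydrogenase, measured 1239, 1186 and 1475 CPM against 1495 and 1239.5, with a log2 fold change of -0.07 ± 0.18 (SE). Neither gene separated the genotypes. In Mdh2, WT replicate 2 lay within 1 CPM of ATF4 BKO replicate 1.

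For 6 of the 9 members the range of the ATF4 BKO values held both WT values. ATF4 BKO replicate 2 was the lowest of the 5 libraries for 8 of the 9 genes, the exception being Idh2. ATF4 BKO replicate 3 was the highest for 6 and WT replicate 1 for the other 3 (Cs, Ogdh and Mdh2). The sign of the difference also moved with the libraries compared: within the first name prefix the ATF4 BKO value was the lower for 6 members and the higher for 3, and within the second it was the lower for 1 (Cs) and the higher for 8. Leaving out ATF4 BKO replicate 1 gave 6 lower and 3 higher, leaving out ATF4 BKO replicate 2 gave 2 and 7, and leaving out ATF4 BKO replicate 3 gave 7 and 2. Leaving out WT replicate 1 gave 2 and 7, and leaving out the muscle-rich WT replicate 2 gave 5 and 4. None was called by edgeR in any of these.

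Across all mice the order of the levels, compared as TPM, was Mdh2 (1491 ± 202, SD, n = 5), Idh3a (1377 ± 183), Sucla2 (1021 ± 105), Suclg1 (956 ± 109), Cs (953 ± 131), Ogdh (928 ± 111), Idh3b (905 ± 76.7), Fh1 (527 ± 34.9) and Idh2 (257 ± 64.3). Only 3 gaps between neighbours in this order exceeded the larger SD of the pair, those after Idh3a, after Idh3b and after Fh1, and the gap between Mdh2 and Idh3a was among those that did not. The order of the group means was not the same in both genotypes. The mean TPM of Cs in the ATF4 BKO mice (858) lay below those of Suclg1 (947), Ogdh (866) and Idh3b (861), and in the WT mice (1095) above them (969, 1021 and 971). In the ATF4 BKO mice each of these gaps was smaller than the SD of the other gene (149, 73.7 and 57.9). A change of order between genotypes therefore cannot be read from them. The highest and lowest members differed by 5.80 times, and by 2.83 times without Idh2. All stood among the most abundant genes of the tissue, ranking from 75 (Mdh2) to 456 (Idh2) of all genes by mean TPM. These TPM sum every transcript of a gene, including those not annotated as coding. In Idh3a the coding Idh3a-205 held 32.5% on average, the retained intron Idh3a-203 49.7% and Idh3a-204, annotated for nonsense-mediated decay, 17.5%. Mdh2-203, with the same annotation, held 47.1% of Mdh2 TPM. The order over coding transcripts alone was not computed.

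In a further 8 subunits of the cycle no difference was called. On the TMM-scaled CPM scale their log2 fold changes were negative for 1 and positive for 7, with a median of 0.05, and neither edgeR nor DESeq2 called any. None had an unadjusted p under 0.05. In none did the genotypes separate on this scale. With the muscle covariate 7 were negative, between -0.28 (Sdhb) and -0.08 (Idh3g), and Sdha had 0.02. Idh3g, the gamma subunit beside Idh3a and Idh3b, had the largest positive value, 0.24 ± 0.19 (SE), from 804, 733 and 1015 CPM against 754 and 691, which became 0.09 without ATF4 BKO replicate 3 and 0.35 without ATF4 BKO replicate 2. In succinate dehydrogenase, which is also complex II of the respiratory chain, Sdha had a log2 fold change of 0.18, Sdhb of 0.06, Sdhc of 0.03 and Sdhd of 0.05. Dlst and Dld, the remaining subunits of the 2-oxoglutarate dehydrogenase complex, had 0.05 and -0.09, and Suclg2 had 0.08 at the lowest level of all the subunits described (76.7 TPM). For Suclg2, 20.6% of the 31-base words occur in other genes, so its counts are uncertain.

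**Figure D2:**
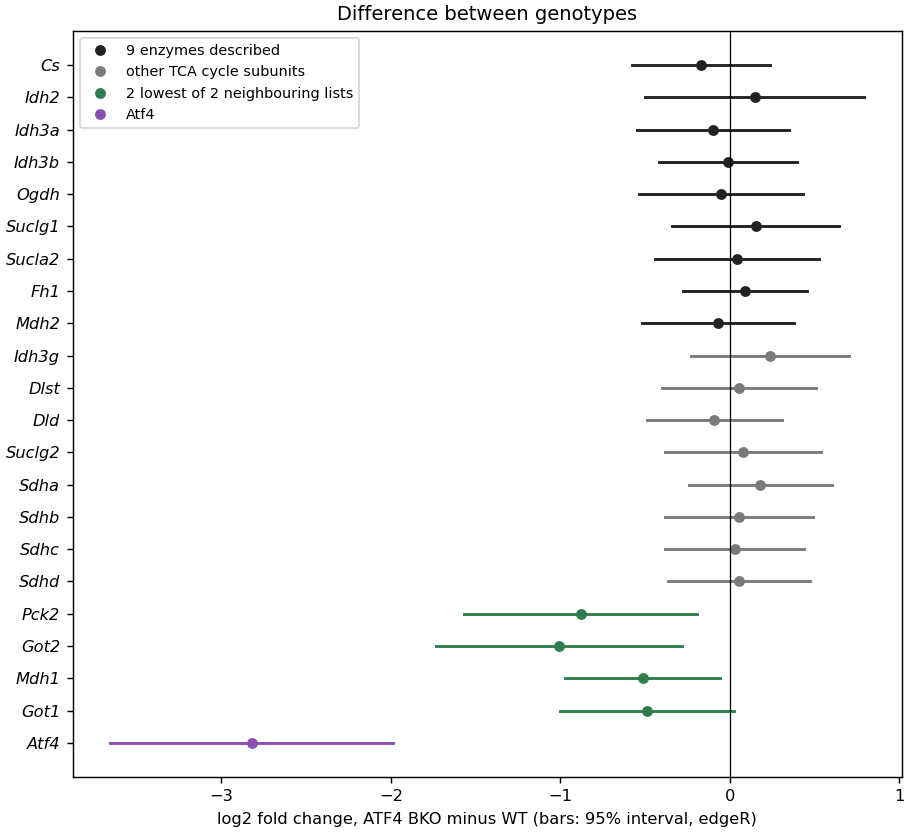
Log2 fold change (ATF4 BKO minus WT, points) with its 95% interval from edgeR, not adjusted for the number of genes (bars), for the 9 enzymes, 8 further cycle subunits, Mdh1, Got1, Got2 and Pck2 (drawn as the lowest of their lists), and Atf4. The intervals of all cycle subunits drawn hold 0, while those of Pck2, Got2, Mdh1 and Atf4 lie below it.

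The picture depended on how the libraries were scaled. TPM divide the library among all transcripts, and the mRNAs of the mitochondrial genome, which encodes core subunits of the respiratory chain and ATP synthase but no cycle enzyme, took a larger part of the ATF4 BKO libraries. Transcripts of the mitochondrial genome made up 35.4%, 29.5% and 32.5% of TPM in the ATF4 BKO mice and 24.0% and 24.9% in the WT mice. All 13 mitochondrial mRNAs were higher in every ATF4 BKO library than in both WT libraries on the TMM scale (8.95% of all genes were). Their median log2 fold change was 0.52. DESeq2 called mt-Co2 and mt-Atp6, beside 0.736% of all genes, and edgeR called 0. The summed TPM of the 9 enzymes was 7416, 7598 and 8786 in the ATF4 BKO mice and 9278 and 9001 in the WT mice. Every ATF4 BKO sum was below both WT sums, and the ATF4 BKO mean was 86.8% of the WT mean (two-sided exact permutation test, p = 0.2). When TPM were rescaled so that nuclear genes alone share the total, the sums became 11595, 10883 and 13151 against 12335 and 12121, and the genotypes overlapped.

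**Figure D3:**
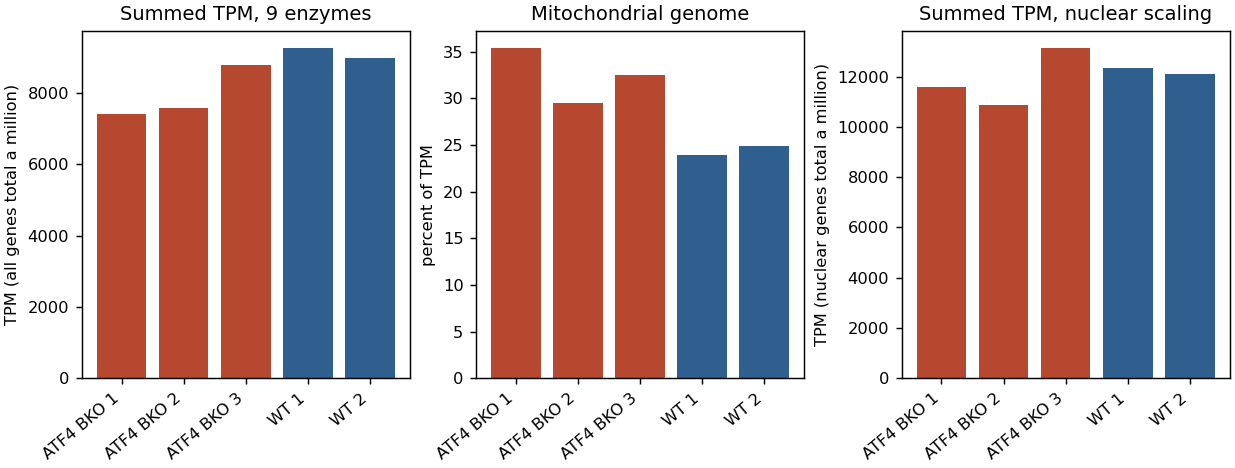
Summed TPM of the 9 enzymes per mouse (left), the percentage of TPM from the mitochondrial genome (middle) and the summed TPM after rescaling over nuclear genes alone (right), all axes from 0, ATF4 BKO in red and WT in blue. The ATF4 BKO sums lie below both WT sums on the left, and overlap them on the right.

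Gene by gene, 4 members (Cs, Idh3a, Idh3b and Mdh2) were lower in every ATF4 BKO library on the TPM scale, where 24.9% of all genes were, and 1 (Cs) on the nuclear TPM scale, where 12.7% were. None was higher in every ATF4 BKO library on either scale, where 3.02% and 7.44% of all genes were. The corresponding median log2 ratios of the members were -0.17 and -0.01. Cs was the sole member with every ATF4 BKO value below both WT values in TPM, in nuclear TPM and in CPM, which rescale the same reads. Its TPM were 856, 854 and 865 in the ATF4 BKO mice against 1118 and 1071 in the WT mice, with limma on log2(TPM + 1) giving an unadjusted p of 0.0277 and an adjusted p of 0.550. The 8 further subunits and the nuclear-encoded respiratory chain, ATP synthase and mitochondrial mass genes moved with the scale too. In TPM, 3 of the 8 subunits (Dld, Sdhc and Suclg2) and 8 of 18 respiratory and mass genes (median log2 ratio -0.18) were lower in every ATF4 BKO library and none was higher in every one. In nuclear TPM, 1 of the 8 (Dld) and 5 of the 18 were lower in every one, and 2 of each were higher. On the TMM-scaled CPM scale, 8 of these 18 had a negative and 10 a positive log2 fold change, the median was 0.03, none was called by edgeR or DESeq2, and 2 (Ndufs1 and Hspd1) had every ATF4 BKO value below both WT values, beside 10.6% of all genes. The extremes of that list were Hspd1, a mitochondrial chaperonin, at -0.40, Vdac1, an outer membrane channel, at -0.28, and the complex I and III subunits Ndufv1 and Uqcrc1 at 0.18 and 0.15. With the muscle covariate these were -0.73, -0.55, -0.21 and -0.14, and without ATF4 BKO replicate 3 Ndufv1 and Uqcrc1 had 0.03 and 0.02.

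Estimated transcript use within the genes was more uneven than the totals. The 9 genes have 50 listed transcripts, of which 13 in 6 genes held on average 10% to 90% of their gene's TPM. Of these 13, the ATF4 BKO shares all lay below both WT shares for 3 (Ogdh-204, Sucla2-201 and Idh3a-204) and above both for 5 (Ogdh-201, Sucla2-203, Idh3a-203, Mdh2-203 and Fh1-205), where 11.3% and 11.7% of such transcripts in all genes did. Shares within a gene sum to the whole, so partners mirror each other. In Ogdh, Ogdh-201 held 67.5%, 67.0% and 72.7% in the ATF4 BKO mice against 56.5% and 61.6%, and Ogdh-204 held 29.1%, 28.4% and 23.8% against 40.1% and 34.5%. These transcripts have the same coding sequence of 3069 bases. They differ outside it, since the first exon of Ogdh-204 ends 76 bases further on and its 3′ end lies 64 bases before that of Ogdh-201. In Sucla2, the shorter transcript Sucla2-201 held 44.6%, 46.8% and 42.4% against 49.4% and 48.4%, the rest being nearly all Sucla2-203. In Idh3a the largest average share, 49.7%, was assigned to Idh3a-203, annotated as a retained intron, and in Mdh2 the largest, 47.1%, to Mdh2-203, annotated as a target of nonsense-mediated decay. No test was run on the shares, which rest on how the pseudo-aligner split reads between overlapping transcripts.

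**Figure D4:**
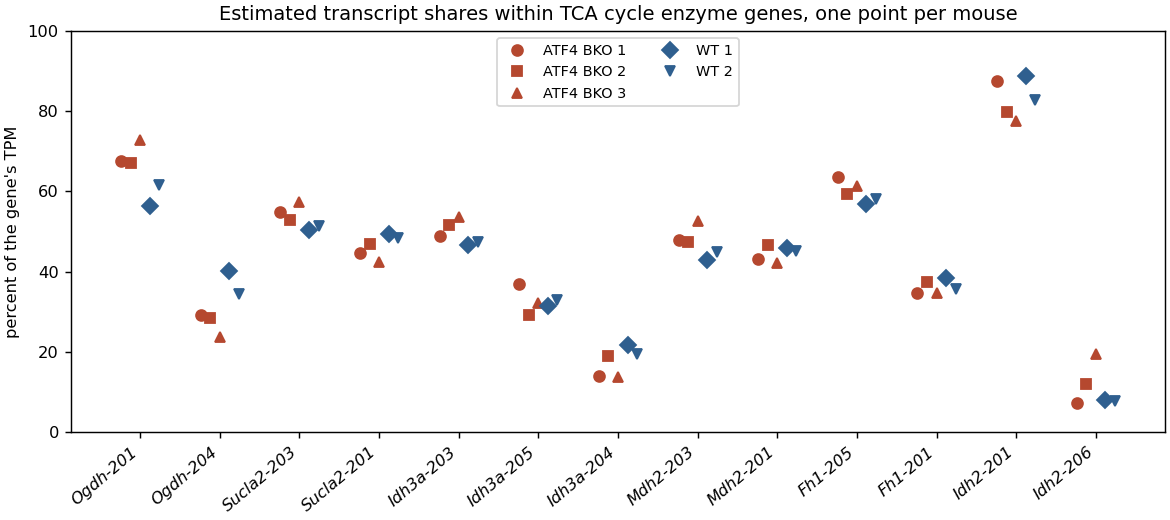
Share of each gene's TPM (percent, axis from 0 to 100) held by the 13 transcripts with a mean share of 10% to 90%, one point per mouse, ATF4 BKO in red and WT in blue. The red and blue points of Ogdh-201 and of Ogdh-204 are the most separated, with ATF4 BKO above WT in the former and below it in the latter.

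Routes into and out of the cycle were read from lists of neighbouring genes. Of 13 genes that bring pyruvate in (carrier, pyruvate dehydrogenase, and its kinases and phosphatases), 5 had a negative and 8 a positive log2 fold change, and none had an unadjusted p under 0.05. Pdk1 and Pdp2, a kinase that shuts pyruvate dehydrogenase off and a phosphatase that turns it on, had the highest values (0.73 and 0.26), and Pdpr, a regulator of the phosphatase, and Pdhx, a structural subunit, the lowest (-0.28 and -0.09, with ranges from -0.45 to -0.14 and from -0.16 to 0.01 without single libraries). Pdk1 rested on ATF4 BKO replicate 1 (188 CPM, against 56.1 and 99.8 in the other ATF4 BKO libraries and 68.3 and 70.1 in WT), and Pdp2 had 0.02 without WT replicate 1 and 0.56 without WT replicate 2. Among 6 tested mitochondrial carriers of 7 listed, not all of them for cycle intermediates, 4 were lower and 2 higher, with none at an unadjusted p under 0.05. The extremes were the aspartate-glutamate carriers, Slc25a12 at -0.79 and Slc25a13 at 0.86, the latter at no more than 3.24 CPM, with the citrate carrier Slc25a1 at 0.40 and the dicarboxylate carrier Slc25a10 at -0.21. These values rested on single libraries. Slc25a1 had -0.19 without ATF4 BKO replicate 1. Without WT replicate 1 and without WT replicate 2 in turn, Slc25a10 had -0.58 and 0.28, Slc25a12 -1.18 and -0.26, and Slc25a13 0.19 and 2.20. With the muscle covariate Slc25a12 and Slc25a10 turned to 0.55 and 0.84, and Slc25a13 and Slc25a1 had 3.59 and 0.25.

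Got2 and Pck2 had the 2 lowest log2 fold changes of the genes that fill or drain the cycle (anaplerosis and cataplerosis). Mdh1 and Got1 had the 2 lowest of a list of 5 cytosolic enzymes that handle cycle metabolites. All 4 are given here because they were the lowest, and none was called by edgeR or DESeq2. Got2, the mitochondrial aspartate aminotransferase, measured 49.2, 54.1 and 51.1 CPM in the ATF4 BKO mice and 140.3 and 66.7 in the WT mice, and Got1, its cytosolic form, measured 111, 147 and 142 against 221 and 154. Mdh1, the cytosolic malate dehydrogenase, measured 78.9, 76.1 and 81.8 CPM against 135 and 90.2, and Pck2, the mitochondrial phosphoenolpyruvate carboxykinase that draws oxaloacetate out of the cycle, measured 20.1, 29.3 and 29.2 against 61.2 and 35.3. In all 4 genes every ATF4 BKO value lay below both WT values, as in 10.6% of all genes. These were 2 of the 13 tested genes of the first list and 2 of the 5 of the second, and since the lowest genes of each list were picked, the lack of overlap is a description only. WT replicate 1 stood well above the rest in each. The log2 fold changes were -1.01 ± 0.30 (SE) for Got2, -0.88 ± 0.28 for Pck2, -0.51 ± 0.19 for Mdh1 and -0.49 ± 0.21 for Got1, with unadjusted edgeR p of 0.0144, 0.0203, 0.0335 and 0.0576 and adjusted p of 0.844 for Got2 and 0.911 for the others. Without WT replicate 1 they were -0.36, -0.42, -0.18 and -0.20, and without ATF4 BKO replicate 1 they were -0.98, -0.72, -0.51 and -0.37. Without the muscle-rich WT replicate 2 they were -1.46, -1.24, -0.79 and -0.74, and with the muscle covariate -1.80, -1.44, -1.05 and -0.84. None was called under any alternative, with a lowest adjusted p of 0.0781 (Got2). WT replicate 1 was also the library richest in erythrocyte RNA and poorest in macrophage RNA. For Got2, 20.3% of the 31-base words occur in other genes, among which the pseudogene Got2-ps1 shares the most.

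Other enzymes that handle the same metabolites lay on both sides of 0. Mdh2 had a log2 fold change of -0.07, the pyruvate carboxylase gene Pcx of -0.08 (0.02 without WT replicate 1), and the malic enzyme genes Me1 and Me3 of 0.11 and 0.18. Me1 had -0.23 without ATF4 BKO replicate 1 and 0.33 without ATF4 BKO replicate 2, and Me3 -0.03 without WT replicate 2 and 0.41 without WT replicate 1. Of 13 tested anaplerotic and cataplerotic genes of 14 listed, 4 had a negative and 9 a positive log2 fold change, and 2 (Got2 and Pck2) had an unadjusted p under 0.05. Pck1, the cytosolic partner of Pck2 that feeds glyceride synthesis in fat, measured 4205, 3295 and 4318 CPM in the ATF4 BKO mice against 2563 and 3215 in the WT mice (log2 fold change 0.45, edgeR adjusted p = 0.911). Pccb, a subunit of propionyl-CoA carboxylase, was next highest at 0.20 (0.10 to 0.32 without single libraries). Of the 5 listed cytosolic enzymes that handle cycle metabolites, 3 were lower and 2 higher. Acly, which splits exported citrate for fat synthesis, was the most uneven, with 2919, 235 and 965 CPM against 646 and 849.7 (log2 fold change 0.88). That value rested on ATF4 BKO replicate 1: it was -0.32 without this library, which goes against its sex label, and 1.40 without ATF4 BKO replicate 2. The cytosolic isocitrate dehydrogenase Idh1 had 0.16, with 0.04 without ATF4 BKO replicate 3 or without WT replicate 1 and 0.31 without ATF4 BKO replicate 2. Of 17 regulators and assembly factors listed, Nnt, which has 2 gene IDs (log2 fold changes -0.20 and 0.18), was left out of the counts. Of the other 16, 11 were lower and 5 higher, with none at an unadjusted p under 0.05. In 3 of the 16, Esrrg, Nrf1 and Tfam, which drive mitochondrial gene expression, every ATF4 BKO value lay below both WT values, beside 10.6% of all genes. Among the 16, without Nnt, Ppara (-0.62) and Esrrg (-0.34) had the lowest values and Ppargc1a (0.35) and Sirt3 (0.12) the highest. Ppargc1a changed sign with single libraries, to -0.31 without ATF4 BKO replicate 2 and -0.10 without WT replicate 1, against 0.98 without WT replicate 2. Ppara had -0.89 without WT replicate 1 and -0.29 without WT replicate 2. With the muscle covariate Ppara turned to 0.33, Esrrg had -0.13, Ppargc1a 2.13 and Sirt3 -0.02.

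The promoters of these genes (250 bases before to 50 after the annotated start, RefSeq, GRCm38.p6) were searched on both strands for the letters of 4 motifs. Of the 9 enzymes, 8 are in that set, and Idh3a is not. A gene was counted if any of its starts held a match (Ogdh has 6), while the percentages are of single promoters, so these are unlike units. The core of the ATF4 and C/EBP composite element, TGATGNAA, was found in 0 of these 8 genes and in 3.97% of all 32851 promoters. It was present in 5 of 11 genes of the list of Atf4 and its targets (Asns, Chac1, Fgf21, Slc7a11 and Trib3) and, among the neighbours of the cycle, in Got1, Pck2 and Me3. Me3 had a log2 fold change of 0.18, and the promoters of Got2 and Mdh1 held no match. Got1 and Pck2 are shown as examples of the match, each 5′ to 3′ on the gene's strand with the match in capitals. The window of Got1 is chr19:43524640-43524767 (minus strand) and that of Pck2 is chr14:55540103-55540230 (plus strand).
Got1 promoter: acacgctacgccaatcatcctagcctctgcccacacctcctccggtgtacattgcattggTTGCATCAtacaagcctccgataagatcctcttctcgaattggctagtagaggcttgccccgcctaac
Pck2 promoter: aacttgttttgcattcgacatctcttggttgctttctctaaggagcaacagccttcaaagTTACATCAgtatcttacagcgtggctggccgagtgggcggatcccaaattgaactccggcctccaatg
The estrogen-related receptor element TCAAGGTCA, the NRF1 core (its palindromic consensus with any base at the centre) and the GABPA core CCGGAAGT, whose factors are known regulators of mitochondrial genes, occurred in 0, 1 (Sucla2) and 0 of the 8 enzymes, against 0.423%, 4.6% and 3.89% of all promoters. Among the further cycle subunits, Sdhd held the first, Dld, Sdha and Sdhd the NRF1 core and Dlst the GABPA core. A match is a run of letters and not a measured binding site.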

How the data were processed

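The authors counted reads of stranded mRNA libraries per transcript with kallisto 0.45.0 (submitters' processing notes, build mm10) and deposited, per mouse, estimated counts and TPM, with no normalization between mice. The annotation used is not given in the sources used here. Here, 138191 of 141450 transcripts were matched to GENCODE M21 and summed per gene. Sums were rounded, a minimum of 10 counts in 2 or more libraries was required, and genotypes were compared with edgeR 4.0.16 (R 4.3.3, TMM, quasi-likelihood test, Benjamini-Hochberg over 16450 genes, threshold 0.05). The 95% intervals come from the same fit. DESeq2 1.42.0 and limma 3.58.1 on log2(TPM + 1) were alternatives, beside other scalings, no filter, blocks, a skeletal muscle covariate and leaving out each library. Replicate pairs differed by far more than sampling noise (chi-square per degree of freedom at least 50.4), so none was counted as a repeat. The members and gene lists were chosen with earlier results of these data known. Named are the cycle subunits (1 of the list is not reported here), called genes, the 2 highest and 2 lowest of other lists, and for markers of other cell types the most abundant gene. Exceptions, chosen after their values were seen, are genes named as groups that do not overlap, and Ucp1, Pcx, Me1, Me3, Acta1 and Ckm. Nnt is named because it was left out of the counts of its list.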

Additional observations from a re-analysis of the deposited data

How the results depend on the processing

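None of the 9 enzymes was called by edgeR, DESeq2 or limma under any alternative run, and Cs and Idh3a had a negative log2 fold change in all of them, though that of Idh3a was -0.00348 without ATF4 BKO replicate 2 (-0.210 without replicate 3). Genes called numbered 1, and 121 with DESeq2, 8 without a filter, 0 and 2 with limma on log2(TPM + 1) and log2(TPM + 0.1) (Cacna1i and Gm9794 with the latter), 215 with the skeletal muscle covariate, 0 with the name prefix block and 0 to 23 when each library was left out. The median of the 9 was -0.17 with either limma fit, where all genes had -0.12 and -0.17, and -0.30 with the muscle covariate, which made all 9 lower; the medians of the other subunits on the list were -0.14, -0.14 and -0.19. Limma on log2(TPM + 1) gave 1 member (Cs) an unadjusted p under 0.05. Leaving out each library moved the median of the 9 from -0.11 to 0.09, that of the other subunits from -0.02 to 0.18, the summed TPM difference from -1633 to -947 and the Idh3a to Idh3b ratio difference from -0.183 to -0.0482. The Sucla2 share difference turned to -0.156 in CPM and ranged from -0.0960 to 0.761 percentage points without single libraries (-0.0025 without ATF4 BKO replicate 3).

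Signs of members turned as follows, also for Suclg1 and Idh2, which had the highest values in the main fit. With library totals, Sucla2 had -0.0725 and Fh1 -0.0207. With limma on log2(TPM + 1) and log2(TPM + 0.1), Idh2 had -0.0103 and -0.0106, Sucla2 -0.173 and -0.174, Suclg1 -0.0434 and -0.0434, and Fh1 -0.0548 and -0.0549. With the muscle covariate, Idh2 had -0.0698, Sucla2 -0.106, Suclg1 -0.0602 and Fh1 -0.0771. Without single libraries, Idh2 ranged from -0.0411 to 0.354, Idh3b from -0.107 to 0.0946, Ogdh from -0.191 to 0.103, Sucla2 from -0.0435 to 0.190 and Mdh2 from -0.214 to 0.0836. The cause was not tested.

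Replicate numbers are shared by ATF4 BKO and WT libraries 1 and 2, and the labels do not say that a number marks a shared litter, cage or day. Their deviations correlated at 0.0473 and 0.2. With 2 WT libraries these deviations mirror each other, so the check cannot settle whether the numbers pair the mice. With the replicate block, which leaves 1 residual degree of freedom, 0 genes were called (711 had an unadjusted p below 0.05), Idh2 had -0.0714, Sucla2 -0.0583, Suclg1 -0.00572 and the Sucla2 share difference was -0.0025. With 2 WT mice and 1 sex-mismatched ATF4 BKO library, the intervals given limit what could be detected. Muscle RNA and genotype cannot be told apart, since both WT libraries held the most.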

Other observations

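The genes outside all lists whose log2 CPM followed the mean of the 9 enzymes most closely over the 5 libraries, among 8575 genes with a mean of at least 10 CPM, were Ampd2 (Pearson r = 0.996), an AMP deaminase, Cox7b (0.993) and Ndufs7 (0.991), subunits of respiratory complexes IV and I, Ndufb4c (0.992) and Mettl8 (0.991). With so few libraries, which share their depth and scaling, these values are a description only. Ampd2 measured 30.4, 24.4 and 45.0 CPM in the ATF4 BKO mice and 35.0 and 29.2 in the WT mice, with the lowest and highest values both in ATF4 BKO libraries, as for 6 of the enzymes.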
